A study of Mus musculus with 4 samples.

Results

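Nuclei of the adult mammary gland that the authors placed in their classes 1 and 8 were compared within each of 2 adult libraries of single-nucleus ATAC-seq. Class 1 held 201 and 418 nuclei and class 8 held 134 and 297 nuclei in adult replicates 1 and 2. Together these 1050 nuclei were part of 5269 adult nuclei and of 7846 nuclei in the series. The members were taken by the class number in the deposited table of motif scores, so the classes had been cut by the authors from these same nuclei. The calls below therefore describe in which features the classes differ in both libraries, and they are no test that the classes exist.

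In single-nucleus ATAC-seq a transposase, Tn5, inserts adapters where DNA is accessible, and barcodes added in successive wells tell the nuclei apart. The labels name mammary epithelium of the outbred CD1 stock, with no allele or agent, sorted for EpCAM and against lineage markers (EpCAM+ and Lin-). The adult groups used here came from glands of mice at 8 weeks, in 2 biological replicates, and nuclei of both classes in a replicate shared tissue, wells and sequencing. The fetal samples of embryonic day 18 were used only to count nuclei: class 8 held 10 fetal nuclei and class 1 held 0. The labels do not say how many animals were pooled, and p-values measure only the spread between these 2 libraries.

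The mammary epithelium is a bilayer in which basal cells, most of them contractile myoepithelial cells, surround the luminal cells of ducts and alveoli. Basal cells carry keratins 5 and 14 and smooth muscle actin, and the p53 relative p63 (gene Trp63) maintains their identity. Open chromatin at a promoter or enhancer marks DNA that transcription factors can reach, while DNA wrapped around nucleosomes is cut less.

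Both classes had the open chromatin of basal cells. Reads over the spans of 15 basal keratin and adhesion genes summed to 2154 and 1960 RPM, reads per 1000000 reads of the class, in class 1 and to 1746 and 1512 in class 8. In the luminal classes 2, 3, 7 and 11 of the same libraries this sum lay between 939 and 1281. Krt5, a basal keratin, took 70.3 and 69.8 RPM in class 1 and 59.1 and 54.1 in class 8, and between 0 and 12.2 in the luminal classes. Acta2, smooth muscle actin, took 114 and 115 RPM in class 1 and 84.0 and 98.0 in class 8, and at most 19.3 in the luminal classes. Kit, a receptor of luminal progenitors, took 7.03 to 13.3 RPM in the 4 basal sums and 122 to 156 in the luminal classes 3 and 7. Most genes took some reads outside their own cell type, so a low level is not read as expression.

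The upstream sequences of Cxcl2, Cxcl1 and Hspa5, which took more reads in class 1, are shown first. Reads over these genes separated the classes in both libraries. They were picked from the 8 genes named by rule in that direction, and the other windows are not shown. Each line gives the 250 bases before the gene start from RefSeq on GRCm38.p6, read in the direction of the gene. Capitals mark matches on either strand to GGG, any 2 bases and TTTCC (a form of the NF-κB site), to CCAAT, any 9 bases and CCACG (the endoplasmic reticulum stress element), to TGACG (a half-site of the cAMP response element) and to TGANTCA (the AP-1 site). The Cxcl2 window is chr5:90903649-90903898 on the plus strand, the Cxcl1 window chr5:90890995-90891244 on the plus strand and the Hspa5 window chr2:34771840-34772089 on the plus strand.
Cxcl2: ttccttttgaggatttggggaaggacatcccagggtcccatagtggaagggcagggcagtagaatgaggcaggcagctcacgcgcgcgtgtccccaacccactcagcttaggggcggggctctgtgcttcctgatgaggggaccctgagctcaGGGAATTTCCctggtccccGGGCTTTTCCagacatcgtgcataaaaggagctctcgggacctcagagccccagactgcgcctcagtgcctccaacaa
Cxcl1: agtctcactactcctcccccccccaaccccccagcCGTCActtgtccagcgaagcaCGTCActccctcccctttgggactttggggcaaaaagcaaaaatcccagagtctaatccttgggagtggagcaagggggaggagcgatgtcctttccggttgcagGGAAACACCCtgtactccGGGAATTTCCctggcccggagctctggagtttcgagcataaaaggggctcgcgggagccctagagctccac
Hspa5: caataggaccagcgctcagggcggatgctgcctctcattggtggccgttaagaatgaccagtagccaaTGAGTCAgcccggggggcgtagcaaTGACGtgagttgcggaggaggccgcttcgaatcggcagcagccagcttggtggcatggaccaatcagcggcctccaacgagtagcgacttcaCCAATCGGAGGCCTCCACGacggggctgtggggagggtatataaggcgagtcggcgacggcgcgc
Among the windows of 21247 protein-coding genes, 1.43% held the NF-κB letters, 0.132% the stress element, 20.2% the half-site and 6.13% the AP-1 site. Both chemokine windows held 2 matches to the NF-κB letters, at 71 and 89 bases before the Cxcl1 start and at 97 and 78 bases before the Cxcl2 start, counted to the first base of each match. The Hspa5 window held 1 stress element beginning 65 bases before the start. No match to the NF-κB letters lay in the Hspa5 window. A match describes letters and does not show that a factor binds.

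The classes differed most plainly in where their reads lay. Promoter regions took 25.8% and 25.5% of the reads of class 1 and 18.9% and 17.5% of those of class 8 in libraries 1 and 2, a mean of 25.6% ± 0.186 against 18.2% ± 0.995 (SD, n = 2). The difference was 6.85 and 7.99 percentage points in the 2 libraries, and the libraries of the classes did not overlap. With 2 libraries no exact paired permutation test can go below p = 0.5 (two-sided), so none is given. Within library 1, 96.3% of class 8 nuclei lay below the median promoter share of class 1, and within library 2 this was 94.95%.

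Class 8 read less in listed regions of both kinds. Distal regions took 44.1% and 44.1% of the reads of class 1 and 41.9% and 36.6% of those of class 8. The difference was 2.18 percentage points in library 1 and 7.49 in library 2, so its size differed between libraries. Reads outside both region lists were 30.2% and 30.4% of class 1 and 39.2% and 45.9% of class 8. Of these, reads outside any gene were 12.8% and 13.2% of class 1 and 18.7% and 24.9% of class 8. Nuclei with under 50% of reads in listed regions made up 0.995% and 1.20% of class 1 and 8.96% and 33.3% of class 8. Class 8 of library 2 therefore held a group of nuclei with few reads in regions that the other 3 sums lacked at that size.

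**Figure D1:**
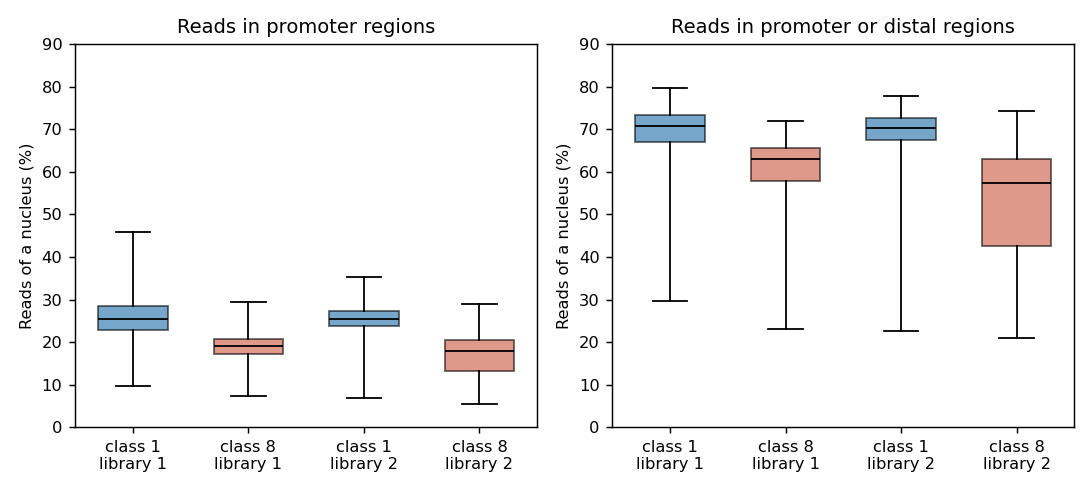
The vertical axes give the percent of a nucleus's reads in promoter regions (left) and in promoter or distal regions (right), for each class and adult library. Boxes span the quartiles, lines in them are medians and whiskers reach the lowest and highest nucleus; the class 8 median for promoters is below the class 1 median in both libraries.

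Sequencing depth differed between the classes as well. The median nucleus had 3731 and 4222 reads in class 1 and 4389 and 5214 in class 8. With equal numbers of nuclei drawn from the same depth bins, 119 per class in library 1 and 264 in library 2, promoter regions took 25.4% and 25.7% of the reads of class 1 and 18.8% and 17.1% of class 8. The promoter shares were as far apart at matched depth. Among basal nuclei of library 1, class 8 made up 41.8% and 38.4% in the 2 sets of PCR indexes, and in library 2 it made up 41.1% and 42.0%. Among tagmentation wells with at least 10 basal nuclei, the class 8 share ran from 23.1% to 53.8% over 14 wells of library 1 and from 25.8% to 55.2% over 23 wells of library 2. The part of the wells in the differences between classes was not tested. No barcode was shared between the adult libraries.

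Reads gathered more sharply at gene starts in class 1. Over 21019 gene starts, the density in the 100 bases just upstream was 21.7 and 23.5 times the density of the flanks in class 1 and 16.9 and 17.5 times in class 8. In promoter regions with an annotated start, the class 1 share over the class 8 share depended on CpG content, which is high at promoters of broadly used genes. Regions with an observed over expected CpG of at least 0.6 took 15.1% and 14.9% of reads in class 1 and 10.5% and 9.77% in class 8, log2 ratios of 0.53 and 0.61. Regions under 0.3 took 0.423% and 0.427% in class 1 and 0.393% and 0.351% in class 8, log2 ratios of 0.11 and 0.28. Among distal regions, those most open in the luminal classes had log2 ratios of 0.26 and 0.48, and those least open there had -0.31 and -0.16. The 494 distal regions at least 4-fold higher in the basal than in the luminal classes had log2 ratios of 0.35 and 0.54. The 144 distal regions at least 4-fold higher in the luminal classes had -0.23 and 0.33, so in library 2 they too took a larger share in class 1. The 494 regions were chosen by their mean RPM over the 4 sums of classes 1 and 8, which had to be at least 20.

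**Figure D2:**
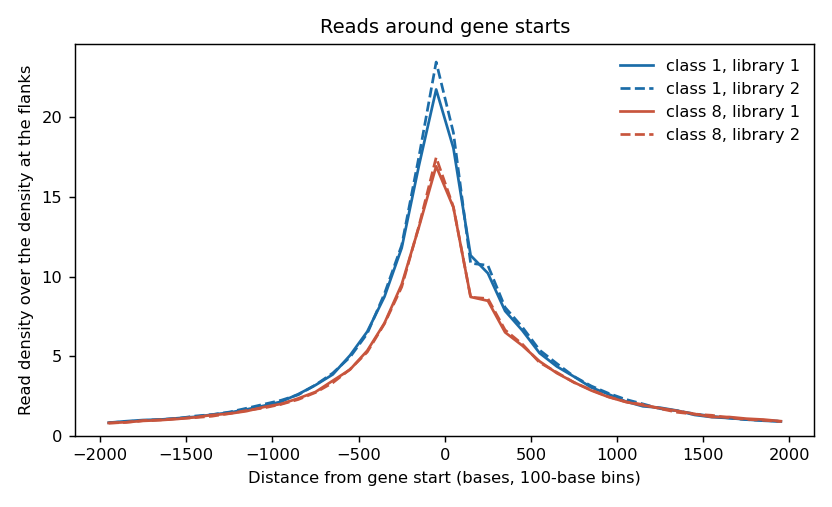
The horizontal axis is the distance from a gene start in bases and the vertical axis the read density over that of the flanks, for both classes and both adult libraries. The class 1 lines peak above 20 and the class 8 lines below 20, and all 4 meet at the edges.

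Read pairs spanned longer stretches in class 8. The deposited files list the 2 reads of a pair separately; about 81% of reads could be paired by their fixed line lengths within a nucleus. Pairs spanning under 290 bases, the short peak of the histogram of spans, were 48.0% and 46.8% of pairs in class 1 and 42.8% and 37.9% in class 8. Pairs from 290 up to 480 bases were 41.0% and 42.1% in class 1 and 44.9% and 49.6% in class 8. Outside the region lists the longer group reached 43.8% and 47.0% in class 1 and 49.4% and 58.5% in class 8. Within promoter regions the same group was 40.9% and 41.5% in class 1 and 42.9% and 43.2% in class 8, a smaller gap.

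**Figure D3:**
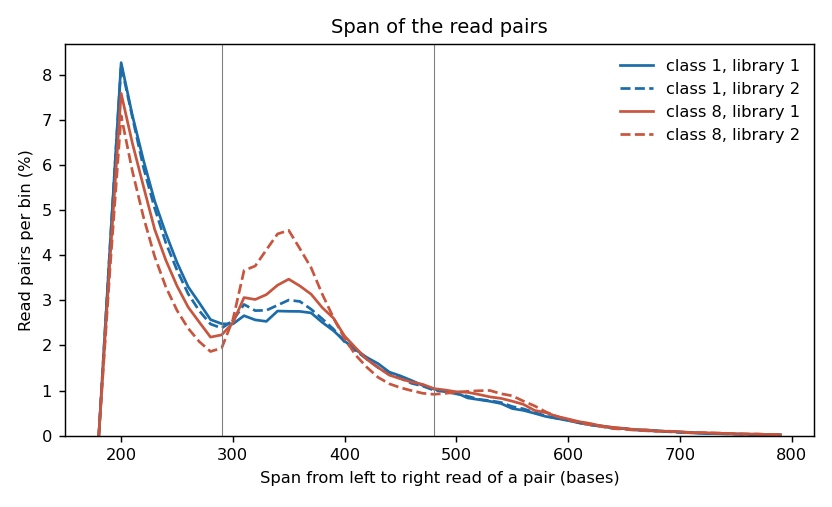
The horizontal axis is the span of a read pair in bases and the vertical axis the percent of pairs per bin, for both classes and both adult libraries; grey lines mark 290 and 480 bases. Class 8 lies below class 1 at short spans and above it around 350 bases, most in library 2.

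The luminal classes showed the same kind of difference. Promoter regions took 27.6% and 26.4% of the reads of class 7 and 21.3% and 20.9% of class 3, both with markers of luminal progenitors. They took 25.7% and 23.3% of class 2 and 21.1% and 18.6% of class 11, both with markers of mature luminal cells. Genes longer than 300 kb took 7.74% and 8.07% of reads in class 1 and 9.23% and 10.4% in class 8, log2 ratios of -0.25 and -0.37. For the same genes the log2 ratio was -0.32 and -0.34 for class 7 over class 3 and -0.29 and -0.33 for class 2 over class 11.

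How many single regions passed a test between the basal classes depended on which sums shared the fit. Reads were summed per library and class and compared with the quasi-likelihood test of edgeR with the library as a block, keeping regions that averaged 10 reads or more per sum, after TMM scaling that centres the regions. Of 15752 distal regions tested, 1 was called at an adjusted p under 0.05, which is 0.00635%, and it was higher in class 1. None was called higher in class 8 (edgeR), where 705 had an unadjusted p under 0.05 in that direction, and DESeq2 called 0. Keeping only regions averaging 50 reads or more, edgeR called 11 of 313, with 7 higher in class 1 and 4 in class 8. One edgeR fit over 12 sums, with the luminal classes 2, 3, 7 and 11 added and their spread shared, called 70 of 26445 distal regions for the basal pair, which is 0.265%, 32 higher in class 1 and 38 higher in class 8. Of the 70, 26 averaged under 10 reads over the basal sums and were not tested in the fit of 4 sums. Of these, 6 were higher in class 1 and 20 in class 8. Of the 44 that both fits tested, 26 were higher in class 1 and 18 in class 8. Of 12037 promoter regions it called 6, which is 0.0498%, with 3 in each direction. This fit of the basal pair was added as an alternative after seeing the data. Of 9948 promoter regions, 5 were called, which is 0.0503%, with 1 higher in class 1 (0.0101%) and 4 higher in class 8 (0.0402%). These shares fall on classes cut from the same nuclei and are given as description. Scaling by all reads of a nucleus moved the median log2 ratio of class 1 over class 8 to 0.41 for distal and 0.56 for promoter regions. It gave 73 distal regions higher in class 1 and 5 in class 8, and 252 promoter regions higher in class 1 and 3 in class 8.

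The called promoter region higher in class 1 lay on chromosome 5 from 90902674 to 90903673, 226 bases from Cxcl2, a chemokine that draws neutrophils. It held 37 and 125 reads in class 1 and 4 and 22 in class 8. The log2 ratio was 2.32 in library 1 and 1.75 in library 2 (edgeR adjusted p = 0.00181). This call was lost under several alternatives. No promoter region was called higher in class 1 without the library block, with DESeq2, at matched depth or with thinning. Of all reads, the region took 43.3 and 61.4 RPM in class 1 and 5.25 and 11.2 in class 8. It took 44.5 and 38.7 RPM in the luminal progenitor class 7 and 19.6 and 19.9 in class 3.

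The 4 called promoter regions higher in class 8 included repeated DNA. One on chromosome 1 from 24612337 to 24613336 overlaps the pseudogene Gm10222, a copy of mitochondrial DNA. It held 98 and 348 reads in class 1 and 135 and 1627 in class 8 (edgeR adjusted p = 3.14e-14). The log2 ratio was -1.09 in library 1 and -2.87 in library 2. Of all reads, this region took 177 and 830 RPM in class 8, 161 and 883 in class 3 and 158 and 771 in class 11. It took 115 and 171 RPM in class 1, 95.8 and 257 in class 7 and 163 and 176 in class 2. Another on chromosome 2 from 98666604 to 98667603, with no RefSeq gene, held 32 and 103 reads in class 1 and 112 and 271 in class 8 (edgeR adjusted p = 4.88e-14). The called distal region, on chromosome 17 from 39844166 to 39845165, lies at ribosomal DNA. It held 2169 and 4258 reads in class 1 and 861 and 1757 in class 8 (log2 ratio 0.91 and 0.73, edgeR adjusted p = 1.39e-08). Reads of such sequence can come from many copies, so these 3 regions are uncertain. The other called regions overlapped Serpinb8, a protease inhibitor, on chromosome 1 from 107589414 to 107590413, and Slitrk6, a neuronal membrane protein, on chromosome 14 from 110754559 to 110755558. The Serpinb8 region held 24 and 18 reads in class 1 and 36 and 55 in class 8. The Slitrk6 region held 4 and 2 reads in class 1 and 9 and 39 in class 8. Of all reads, it took 4.69 and 0.982 RPM in class 1 and 11.8 and 19.9 in class 8. In the mature luminal classes 2 and 11 it took 9.87 to 20.8 RPM. The regions called were named because they were few.

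The following regions were among those with the largest ratios shared by both libraries. They did not pass the test in the fit of 4 sums that kept regions averaging 10 reads or more, and only their values are given. A distal region within Runx1, a transcription factor gene, on chromosome 16 from 92609521 to 92610520 held 54 and 153 reads in class 1 and 18 and 34 in class 8, log2 ratios of 1.12 and 1.56 (edgeR adjusted p = 0.274). A distal region within Tmcc3 on chromosome 10 from 94545300 to 94546299 held 58 and 136 reads in class 1 and 16 and 36 in class 8, log2 ratios of 1.38 and 1.32 (edgeR adjusted p = 0.274). Lower in class 1 was a region within 1600014C10Rik on chromosome 7 from 38189031 to 38190030, with 35 and 88 reads in class 1 and 62 and 126 in class 8, log2 ratios of -1.21 and -1.04 (edgeR adjusted p = 0.274). Among promoter regions higher in class 1, the largest ratio of this kind lay at Fos, an immediate early gene of the AP-1 factors. The Fos region, on chromosome 12 from 85473309 to 85474308, held 38 and 116 reads in class 1 and 8 and 41 in class 8. Its log2 ratios were 1.503 and 0.81 (edgeR adjusted p = 0.415). The next in that direction was Myc, a growth regulator, with 55 and 121 against 20 and 41 reads and log2 ratios of 0.79 and 0.87. Higher in class 8 and not called were promoter regions at Acaa1a and Robo1. Their log2 ratios were -0.87 and -1.01 at Acaa1a and -1.11 and -0.82 at Robo1 (edgeR adjusted p = 0.411 for each). In both regions the smaller ratio of the libraries lay further from 0 than at Fos. Of 313 distal regions averaging 50 reads or more, 4 were at least 2-fold higher in class 1 in both libraries and 1 in class 8. Of 913 such promoter regions, 0 were at least 2-fold higher in class 1 in both libraries and 2 in class 8.

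Whole gene spans gave more calls. Reads were counted over each gene with 2000 bases on either side, and levels are CPM, that is reads per 1000000 reads over tested spans after TMM scaling. Of 15105 genes, 650 were called, which is 4.3%. Of these, 594 were higher in class 8, which is 3.93%, and 56 were higher in class 1, which is 0.371%. Without the library block, 409 of the 594 and 10 of the 56 were still called in the same direction. The split depends on the scaling: by all reads of a nucleus, 334 genes were higher in class 1 and 388 in class 8, with the median log2 ratio at 0.28. DESeq2 called 1 and 192 genes.

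The genes higher in class 8 were long. Their median length was 298 kb, against 26.5 kb for all tested genes and 16.9 kb for those higher in class 1, and 511 of the 594 were longer than 100 kb. Of the 555 tested genes longer than 300 kb, 295 were called higher in class 8. Their median log2 ratio was -0.62 in library 1 and -0.84 in library 2. Of the 3417 genes of up to 10 kb, 4 were called higher in class 8 and 20 higher in class 1, with median log2 ratios of 0.18 and 0.18. Across genes, which are not independent, length and log2 ratio had a Spearman correlation of -0.24 in library 1 and -0.31 in library 2. Counting only reads outside the region lists, 441 of 8282 tested genes were higher in class 8 and 53 in class 1. Counting only reads in the lists, 131 of 13778 tested genes were higher in class 8 and 11 in class 1. Leaving out nuclei with under 50% of reads in listed regions was a choice made after seeing the data. It gave 363 genes higher in class 8 and 36 in class 1, of 14800 tested. Among them were 344 of the 594 and 30 of the 56.

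**Figure D4:**
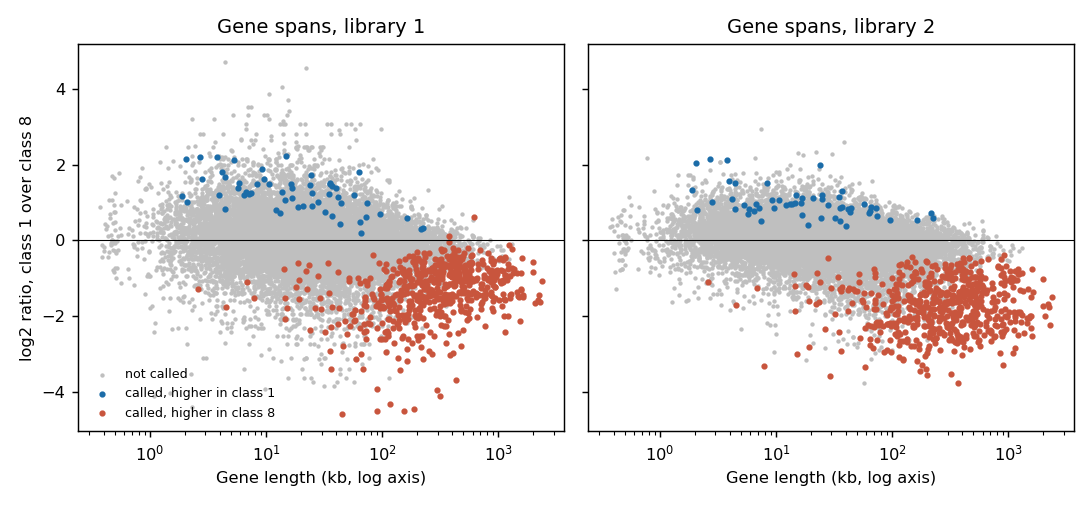
Each point is 1 gene: the horizontal log axis is gene length in kb and the vertical axis the log2 ratio of class 1 over class 8 in library 1 (left) and library 2 (right). Called genes higher in class 8 sit among the longest genes, and called genes higher in class 1 sit mostly under 100 kb.

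The genes with the lowest ratios were named by rule from among the called genes, which were mostly long. Kcnt2, a potassium channel gene on chromosome 1 from 140245657 to 140614045, was at 20.8 and 11.3 CPM in class 1 and at 96.2 and 179 CPM in class 8 (log2 ratio -3.26, edgeR adjusted p = 1.73e-07). Cntn3, a contactin of neural adhesion, was at 17.8 and 15.1 CPM in class 1 and 58.5 and 136 in class 8 (edgeR adjusted p = 1.07e-05). Slc4a10, a bicarbonate transporter, was at 8.90 and 21.3 CPM in class 1 and 60.3 and 127 in class 8. All 3 lay lower in class 1 in both libraries without overlap, as did 585 of the 594 genes called higher in class 8. Among all 15105 tested genes, 6603 had no overlap between the classes, counting both directions. Cntnap5a, of a family of neuronal adhesion proteins, was at 41.5 and 30.7 CPM in class 1 and 96.2 and 320 in class 8. Prkcb, a protein kinase C, was at 19.3 and 13.8 CPM in class 1 and 83.0 and 100.2 in class 8. Gpr158, a receptor of neurons, was at 17.8 and 17.6 CPM in class 1 and 56.6 and 142 in class 8. Cnbd1 and Rtl4 made up the 8 genes with the lowest log2 ratio under the rule, with ratios of -2.62 and -2.55. The median log2 ratio of the 594 genes was -1.29 in library 1 and -1.73 in library 2. In library 2 class 8 also held more nuclei with few reads in regions. Summed over the 594 genes, the log2 ratio of the shares of all reads was -0.90 and -1.17 in the basal pair. It was -0.65 and -0.63 for class 7 over class 3 and -0.50 and -0.57 for class 2 over class 11. For the 56 genes called higher in class 1 it was 1.01 and 1.08, then 0.54 and 0.50, then 0.41 and 0.48 in these pairs. Both sets of genes were chosen in the basal pair.

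Cxcl2, Cxcl1 and Hspa5 were among the 56 genes called higher in class 1 by edgeR. DESeq2 called 1 of the 56, so most of the genes named here and in the next paragraph did not pass it. Cxcl2, on chromosome 5 from 90903899 to 90905938, was at 74.2 and 105 CPM in class 1 and at 15.1 and 24.04 CPM in class 8. All class 1 values were above all class 8 values, as for all 56 genes called higher in class 1. Counting both directions, 6603 of 15105 tested genes had no overlap between the classes. The Cxcl2 log2 ratio was 2.18 (2.16 and 2.05 in the libraries, edgeR adjusted p = 6.11e-05). Cxcl1, the neighbouring chemokine gene from 90891245 to 90893121, was at 74.2 and 74.0 CPM in class 1 and 32.1 and 28.0 in class 8 (log2 ratio 1.32, edgeR adjusted p = 0.0152). Cxcl1 and Cxcl2 are close relatives that lie side by side, and their flanked spans do not overlap. The called promoter region near Cxcl2 lies within the flanked Cxcl2 span, so these 2 results share reads and are not independent. Of all reads, Cxcl2 took 58.6 and 82.5 RPM in class 1, 10.5 and 15.3 in class 8, 79.4 and 48.6 in the luminal class 7 and 28.2 and 24.3 in the luminal class 3.

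Hspa5, the chaperone BiP of the endoplasmic reticulum, on chromosome 2 from 34772090 to 34776529, was at 75.6 and 94.8 CPM in class 1 and 41.5 and 32.1 in class 8 (log2 ratio 1.27, edgeR adjusted p = 0.0130). Its upstream window is the one with the stress element printed above. Clcf1, a cytokine of the IL-6 family, was at 81.6 and 74.0 CPM in class 1 and 20.7 and 34.5 in class 8. Kif22, a kinesin of cell division, was at 105 and 68.4 CPM in class 1 and 20.7 and 28.8 in class 8. Sft2d3 and Slc13a2, a membrane protein and a dicarboxylate transporter, had log2 ratios of 1.29 and 1.26, and their calls were lost without the block (edgeR adjusted p = 0.0854 and 0.0555). The Cxcl1 call was lost under matched depth (log2 ratio 1.12, edgeR adjusted p = 0.110), while Cxcl2 kept log2 2.14 (edgeR adjusted p = 5.67e-05) and Hspa5 kept 1.49 (edgeR adjusted p = 0.00570).

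Immediate early genes, which are transcribed within minutes of a stimulus, gave 1 call. Of 22 tested genes of the immediate early and stress list, 1 was called higher in class 1, against 0.371% of all genes, and 0 higher in class 8, against 3.93% (edgeR; 6 at an unadjusted p under 0.05, DESeq2 0). Their median log2 ratio was 0.24 in library 1 and 0.44 in library 2, against 0.01 and 0.04 for all genes tested. The median length of the list was 3.84 kb, and the genes of up to 10 kb had medians of 0.18 and 0.18. In both libraries 16 of the 22 had a ratio above 0, against 4850 of 15105 genes, which is 32.1%. Summed over the 23 genes of the list, class 1 took 2160 and 2118 RPM and class 8 took 1542 and 1303. The luminal pairs lay the same way, at 3362 and 3119 in class 7 against 2260 and 2419 in class 3. Class 2 took 2781 and 2561 against 2095 and 1795 in class 11. Fosb, an AP-1 gene on chromosome 7 from 19302696 to 19310118, was the called member, at 193 and 218 CPM in class 1 and 79.2 and 153 in class 8 (log2 ratio 0.81, edgeR adjusted p = 0.0210). The Fosb call was lost without the block (adjusted p = 0.178) and at matched depth (adjusted p = 0.266). Fos held 77 and 261 reads in class 1 and 38 and 116 in class 8 (log2 ratio 0.76), and Atf3, a stress factor, held 92 and 161 against 32 and 92 (log2 ratio 0.76). Neither passed the test.

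The lists of basal identity gave almost no calls. Over all genes 4.3% were called, so lists of 13 to 17 genes would hold few calls in any case. Of 15 basal keratin and adhesion genes, 1 was called, against 4.3% of all genes: Dsc3, a desmosomal cadherin, at 22.2 and 33.9 CPM in class 1 and 41.5 and 86.5 in class 8 (log2 ratio -1.19, edgeR adjusted p = 0.0494), a call lost without the block (edgeR adjusted p = 0.143). Krt5 held 60 and 142 reads in class 1 and 45 and 106 in class 8 (log2 ratio 0.07), and Krt14 held 77 and 138 against 90 and 92 (log2 ratio -0.15). Of 17 tested contractile genes, 0 were called (edgeR; 1 at an unadjusted p under 0.05, DESeq2 0). Acta2 and the myosin heavy chain Myh11 had log2 ratios of 0.07 and -0.26. The contractile list as a whole ran from -0.78 at Actg2 and Myocd to 0.70 at Myl9. Of 15 basal transcription factor genes, 0 were called (edgeR; 3 at an unadjusted p under 0.05, DESeq2 0), with Trp63 at 0.40, Trp73 at -0.38, Sox10 at 0.62 and Lef1 at -0.76. Of 13 genes of basal stem cells and 16 of matrix and basement membrane, 0 were called in either list (edgeR; 0 at an unadjusted p under 0.05, DESeq2 0).

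Markers of other cell types gave few calls. Over all genes 3.93% were called higher in class 8 and 0.371% higher in class 1, so such short lists would hold few in any case. Luminal progenitor markers (8 tested), pan-luminal markers (10), stromal markers (9), endothelial markers (7) and immune markers (5) gave 0 calls (edgeR; 0, 1, 1, 2 and 1 at an unadjusted p under 0.05, DESeq2 0). Of the 7 endothelial markers, 6 had a log2 ratio below 0 and 1 above 0 in both libraries, with medians of -0.76 and -0.68, and the median length of these genes was 61.1 kb. Summed levels over the luminal progenitor list were 239 and 232 RPM in class 1 and 205 and 200 in class 8, below the 641 to 857 of classes 3 and 7. Of 12 mature luminal markers, 1 was called, higher in class 8, against 3.93% of all genes. It was Prlr, the prolactin receptor, at 40.0 and 35.1 CPM in class 1 and 81.1 and 110 in class 8 (log2 ratio -1.39, edgeR adjusted p = 0.00373). The Prlr span is 171953 bases long. The list ran from -1.39 to 0.54, with 6 members below 0 and 2 above 0 in both libraries. Of 7 tested markers of pericytes and vessel muscle, 1 was called, also higher in class 8: Abcc9 held 6 and 4 reads in class 1 and 17 and 45 in class 8 (edgeR adjusted p = 0.00762), a call lost at matched depth (edgeR adjusted p = 0.108). Mcam, of the same list, had the highest log2 ratio, 0.87, and 4 members lay below 0 and 2 above 0 in both libraries. Of 9 factors of the epithelial to mesenchymal transition, 1 was called, higher in class 8: Zeb1 was at 22.2 and 20.1 CPM in class 1 and 33.9 and 77.7 in class 8 (edgeR adjusted p = 0.0355), a call lost without the block (edgeR adjusted p = 0.0776). Snai1, of the same list, had a log2 ratio of 1.37 and did not pass the test, and 5 members lay below 0 and 2 above 0 in both libraries. Of 15 housekeeping genes, 1 was called higher in class 1, against 0.371% of all genes: Polr2a, the largest RNA polymerase II subunit, was at 104 and 73.4 CPM against 54.7 and 33.7 (edgeR adjusted p = 0.0427), a call lost without the block (edgeR adjusted p = 0.143) and at matched depth (edgeR adjusted p = 0.305).

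Motif scores describe how open the regions holding a factor's motif are in a nucleus against the average of all nuclei. Differences are on the deposited chromVAR deviation scale. Scores were averaged per library and class and compared with limma with the library as a block. Of 427 motifs, 91 were called, which is 21.3%, with 83 higher in class 1 (19.4%) and 8 in class 8 (1.87%). The 427 motifs hold 388 distinct columns of scores, so counts and shares of motifs include repeated columns. With 1 residual degree of freedom limma gave all motifs the same standard error, 0.0841, so a call says that a mean difference passed 1 fixed size. Only 5 were called when all adult classes shared the spread: Gata2, Gata3, Rarg, Trp63 and Trp73. Scored by the median over nuclei, limma called 0 motifs, with 97 at an unadjusted p under 0.05.

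Of the 3 p53 family motifs, Trp63 and Trp73 were called higher in class 8, against 1.87% of all 427 motifs. They had the largest differences of the 8 motifs called in that direction. Trp53 differed by -0.055, with -0.14 and 0.03 in the libraries, and did not pass the test (limma adjusted p = 0.702). The Trp73 motif had mean scores of 2.97 and 2.94 in class 1 and 3.96 and 3.83 in class 8, a difference of -0.93 (limma adjusted p = 1.15e-22). The Trp63 motif had 3.15 and 3.01 in class 1 and 3.98 and 3.78 in class 8, a difference of -0.80 (limma adjusted p = 4.51e-17). Among the other adult classes with at least 20 nuclei in both libraries, mean scores were 1.24 or less for these motifs. At matched depth the differences were -0.34 and -0.35 for Trp73 and -0.20 and -0.27 for Trp63. Trp73 kept its call there (limma adjusted p = 0.00348), and the Trp63 call was lost (mean difference -0.24, limma adjusted p = 0.0608). Among nuclei with at least 50% of reads in listed regions, a choice made after seeing the data, the differences were larger. They were -1.28 for Trp73 and -1.22 for Trp63. Within classes and libraries, the Trp73 score rose with depth, at r of 0.46 to 0.66 with log2 reads over 134 to 418 nuclei, a description of nuclei that share a library. Neither gene passed the test over its span: Trp63 held 240 and 546 reads in class 1 and 159 and 295 in class 8 (log2 ratio 0.40, edgeR adjusted p = 0.188). Trp73 held 71 and 151 reads in class 1 and 77 and 147 in class 8 (log2 ratio -0.38, edgeR adjusted p = 0.492). Sox9, Egr3, Ubp1, Grhl1, Irf2 and Egr2 were the other motifs called higher in class 8, with differences from -0.23 to -0.32. Of these, Grhl1 kept its call at matched depth, and the other 5 lost it (limma adjusted p from 0.0608 to 0.527).

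GATA, AP-1 and NF-κB motifs lay among those higher in class 1. Gata2 had mean scores of 0.56 and 0.54 in class 1 and -0.14 and 0.11 in class 8, a difference of 0.57 (limma adjusted p = 6.66e-09). Gata3, a luminal regulator, differed by 0.37. At matched depth Gata2 differed by 0.68 and 0.46 in the libraries. Of 12 AP-1 motifs with a score, 8 were called, all higher in class 1, where 19.4% of all motifs were called in that direction; the same share stands beside the NF-κB and RUNX counts that follow. Fos had mean scores of 0.48 and 0.41 in class 1 and 0.24 and -0.27 in class 8, a difference of 0.46, and at matched depth 0.43 and 0.84. All 4 NF-κB motifs were called higher in class 1, with differences of 0.22 to 0.29. At matched depth Nfkb1 and Rela kept the call, while Relb (0.195, limma adjusted p = 0.125) and Rel (0.22, limma adjusted p = 0.0814) lost it, and Relb differed by 0.057 in library 2 in the full data. Most of the difference lay in library 1: Nfkb1 differed by 0.404 and 0.175 in libraries 1 and 2, and by 0.511 and 0.073 at matched depth. Rela differed by 0.382 and 0.154, and by 0.475 and 0.090 at matched depth. All 3 RUNX motifs were called with 0.31 to 0.35, of which Runx1 and Runx3 share 1 column of scores. Rarg, a retinoic acid receptor, differed by 0.47 and Ctcf, the insulator protein, by 0.30. The Ctcf call was lost at matched depth (0.22, limma adjusted p = 0.0848). Over 29 motifs of the TEAD, nuclear factor I, STAT, MADS box, TCF and LEF, E-box and epithelial ETS lists, 0 were called (limma; 2 at an unadjusted p under 0.05). The luminal pairs, class 7 minus class 3 and class 2 minus class 11, are given as description. Over the NF-κB motifs the median difference was 0.25 in the basal pair and 0.44 and 0.21 in the luminal pairs. For RUNX the medians were 0.35 against 0.14 and 0.45, and for AP-1 0.32 against 0.30 and -0.13. For GATA they were 0.47 against 0.03 and -0.03. The NF-κB and RUNX medians thus had the same sign in all pairs.

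**Figure D5:**
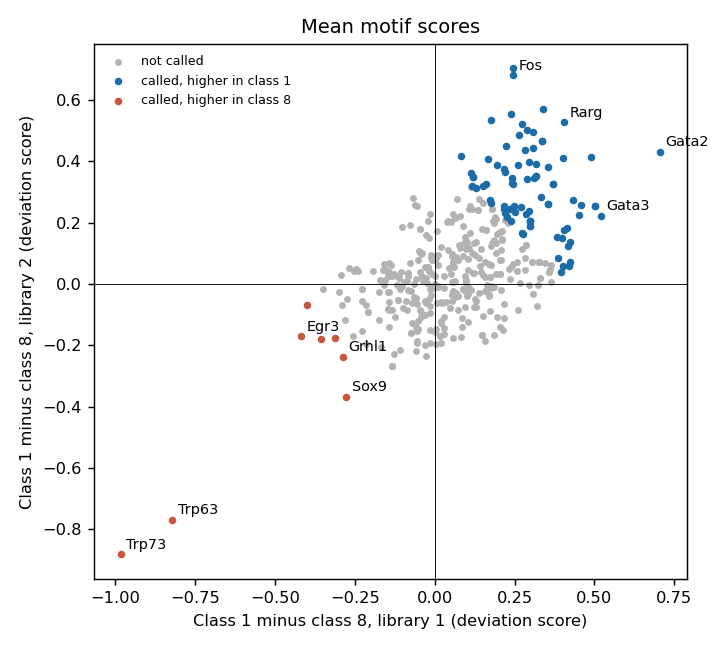
Each point is 1 of 427 motifs; the axes give the mean deviation score of class 1 minus that of class 8 in library 1 (horizontal) and library 2 (vertical). Trp63 and Trp73 lie alone at the lower left, below -0.7 on both axes, and Gata2 and Fos at the upper right.

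The ratios of single features were partly alike between libraries. Across features, described without a test, the log2 ratios of libraries 1 and 2 had a Pearson r of 0.31 over 313 distal regions, 0.14 over 913 promoter regions and 0.50 over 6851 genes averaging 50 reads or more. The r was 0.60 for motif scores over 427 motifs.

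The contrast of the basal pair was set against the mean of the luminal pairs in 1 edgeR fit over 12 sums. Of 26445 distal regions, 3 were called, which is 0.0113%, all with a lower class 1 over class 8 ratio in the basal pair. A region on chromosome 5 from 43071923 to 43072922, 137940 bases from the nearest coding gene, held 6 and 2 reads in class 1 and 15 and 39 in class 8 (edgeR adjusted p = 0.0336). The mature luminal class 2 held 192 and 231 reads there and class 11 held 62 and 107. A region within Adgrv1, an adhesion receptor gene, on chromosome 13 from 81175743 to 81176742 held 0 and 0 reads in class 1 and 14 and 9 in class 8 (edgeR adjusted p = 0.0177). The luminal classes 3 and 7 held 48 to 81 reads in that region per library. These read counts are not scaled, and the sums compared held from 761541 to 4962859 reads in all. The third was the region at ribosomal DNA, whose ratio was above 1 in all 3 pairs.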

How the data were processed

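Single-nucleus ATAC-seq reads of 2 adult libraries were used. Per the submitters' processing notes the build was mm10 and Bowtie2, MACS2 and bedtools were used, with no versions given. The deposited files list read positions with barcodes, which were used as raw read counts without a shift; the libraries held 15628581 and 22037784 reads, of which 86.9% and 87.6% belonged to the 2465 and 2804 nuclei that the authors kept. The deposited read count per nucleus equalled the reads found for every nucleus. The authors' deposited motif values are chromVAR deviation scores per nucleus, and the deposited class numbers were taken as they stood, with no doublet caller run. The authors' deposited co-accessibility score over all nuclei was tabulated only and is not printed.

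Reads of each class were summed per library, since nuclei are not replicates. Both sums of a replicate come from 1 library, so the library was a block. Counts over 1000-base regions (overlap of at least 1 base) and gene spans (2000 bases on either side, RefSeq GRCm38.p6) were tested with edgeR 4.0.16 in R 4.3.3 with Benjamini-Hochberg adjustment at 0.05 over all features with a mean of at least 10 reads. Log2 ratios per library use a prior count of 2. Motif scores were tested with limma 3.58.1, and DESeq2 1.42.0 was an alternative. Counting and plotting ran in Python 3.11.15 (matplotlib 3.10.9, numpy 2.4.6, scipy 1.17.1, pandas 2.3.3). Named features were the 8 highest and 8 lowest log2 ratios among called features with a mean of at least 50 reads and 1 direction in both libraries, also at matched depth; where fewer than 5 were called in a direction, the 8 with the largest smaller ratio of the libraries were taken. Some features that this rule takes are not reported here. For motifs the 10 highest and 10 lowest mean differences with 1 sign were taken. Members, lists and tests were chosen with earlier results of these data known. Depth matching drew equal numbers of nuclei per 0.25 log2 bin of depth, and thinning drew 2000 reads per nucleus. On simulated counts with the spread of these sums, edgeR recovered 1% of 2-fold and 10% of 4-fold changes in distal regions, 6% and 57% in promoter regions, and 21% and 85% in gene spans.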

Additional observations from a re-analysis of the deposited data

Results flagged for a closer look

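The ratio of class 1 over class 8 differed from that of the luminal pairs in 3 distal regions when the difference itself was tested (edgeR). The difference in log2 ratio was -2.87 on chromosome 5 from 43071923 to 43072922 (edgeR adjusted p = 0.0336). It was -0.47 at ribosomal DNA on chromosome 17 from 39844166 to 39845165. In the region within Adgrv1 on chromosome 13 from 81175743 to 81176742 the fitted value was -7.83, but class 1 held 0 reads in both libraries, so this value depends on the prior count and is no bound. The luminal pairs come from the same 2 libraries as the basal pair.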

How the results depend on the processing

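The calls rest on 2 libraries and on few reads per region, so a missing call does not show that the classes were alike. On simulated counts 4-fold changes were recovered in 10% of distal regions, 57% of promoter regions and 85% of gene spans. The simulated motif changes had a median estimated size of 1.02. This is above the largest motif difference in the fit reported (0.93 for Trp73, higher in class 8). Their recovery therefore does not bear on the sizes in that fit. Distal calls were 1 of 15752 in the fit reported and 78 of 15752 with scaling by all reads. They were 9 of 119556 with no filter on low counts, and the call of the fit reported was not among them. At a mean of at least 50 reads they were 11 of 313, with 7 higher in class 1 and 4 in class 8. Midpoint counting gave 7 of 14332 and thinning 2 of 3069. Nuclei of at least 50% of reads in regions, a choice made after seeing the data, gave 7 of 14629. When all adult classes shared the spread there were 11 of 15752. The fit with the luminal classes, also chosen after seeing the data, gave 70 of 26445. Of these, 32 were higher in class 1 and 38 in class 8. Promoter calls were 5 of 9948 as reported, 2 with no replicate block, 1 with DESeq2 and 255 with scaling by all reads. At a mean of at least 50 reads they were 1 of 913 and at matched depth 3 of 8180. Thinning gave 0 of 4371 (edgeR, with 162 at an unadjusted p under 0.05) and the shared spread 3 of 9948. Gene calls were 650 of 15105 as reported, 419 with no replicate block and 193 with DESeq2. They were 387 of 6851 at a mean of at least 50 reads. Nuclei of at least 50% of reads in regions gave 399 of 14800, and reads in listed regions only gave 142 of 13778. In none of these 5 did a gene called in the report change sign except 4 under listed regions only, which were not called there. Motif calls, 91 as reported, numbered 73 with no replicate block, 0 by medians, 58 at matched depth and 5 with the shared spread. With nuclei of at least 50% of reads in regions they numbered 131, with 114 higher in class 1 and 17 in class 8. For the interaction, 3 as reported, there were 2 calls with no replicate block, 14 at a mean of at least 50 reads and 19 with scaling by all reads. The cause of these changes was not tested. Without 1 library the promoter share difference was 6.85 to 7.99 points and the distal 2.18 to 7.49, and no test could be fitted to the other results with 1 library, so only values were computed. Of the values of named features under alternatives, 689 stayed on the same side of the threshold, 120 were no longer past it and 26 came past it; none reversed.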
